A study of Mus musculus with 16 samples.

Results

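Tumors that had formed in the livers of 4 control mice were compared with the peri-tumor liver tissue of the same 4 animals. The comparison uses 8 of the 16 libraries of the study, the 4 tumor and the 4 peri-tumor libraries that the labels give as control, and the animal code in the labels pairs the tissues of each mouse. All 8 libraries are of the genotype HrasG12V, an activated form of the GTPase Hras that drives liver tumors, so the peri-tumor tissue carries the oncogene as well and is not wild-type liver. A figure of 3 months in the labels may be an age or a time on treatment, and the labels name feed and water and no agent for the control mice. The study's protocol names Ras-transgenic and DEN-induced mice, DEN being a liver carcinogen, and whether these 8 libraries come from mice that received it the sources used here do not say. Nor do they give the promoter that drives the transgene or the number of tumors in a library. The other 8 libraries come from mice of the same genotype and labelled time that were treated with a traditional Chinese medicine (TCM) decoction, and they enter here through the common estimate of spread and in the last comparison.

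RAS proteins are molecular switches at the inner face of the cell membrane that pass signals of growth factor receptors to the kinases RAF, MEK and ERK. ERK activity turns on transcription factors of the AP-1 and ETS families and, as a brake, phosphatases of the DUSP family and Sprouty proteins, and lasting RAS activity is known to raise inhibitors of the cell cycle such as p16 and p21. The adult hepatocyte makes most plasma proteins, divides its metabolism between zones around the central and the portal veins, clears drugs and bile acids with zone-specific enzymes and transporters, and sets the iron balance of the body through the hormone hepcidin.

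The 8 libraries held 13947483 to 16172701 counts each, given below as CPM, a gene's counts scaled to a common library total, and mice are numbered 1 to 4 as in the labels. On the first principal component, with 67.9% of the variance, peri-tumor libraries lay between -81.64 and -59.06 and tumor libraries between 63.43 and 79.85. The second, with 10.6%, set both libraries of mouse 4 (-56.70 in peri-tumor tissue and -35.37 in the tumor) apart from the other 6 (3.949 to 26.05). Results that turn on mouse 4 are therefore given with and without it. Of 14865 genes tested, 6415 (43.2%) differed at an adjusted p under 0.05 (edgeR quasi-likelihood test), 3271 (22.0%) up and 3144 (21.2%) down in tumors. The 4 tumors did not overlap with the 4 peri-tumor libraries for 5780 genes (38.9%). The median log2 fold change over all genes was 0.00102. Called and at least 2-fold different were 1715 genes up (11.5% of those tested) and 1286 down (8.65%). Changes of more than 5 on the log2 scale were found for 159 genes that rose and 27 that fell. Without mouse 4, 6301 genes were called, 3037 up and 3264 down.

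**Figure D1:**
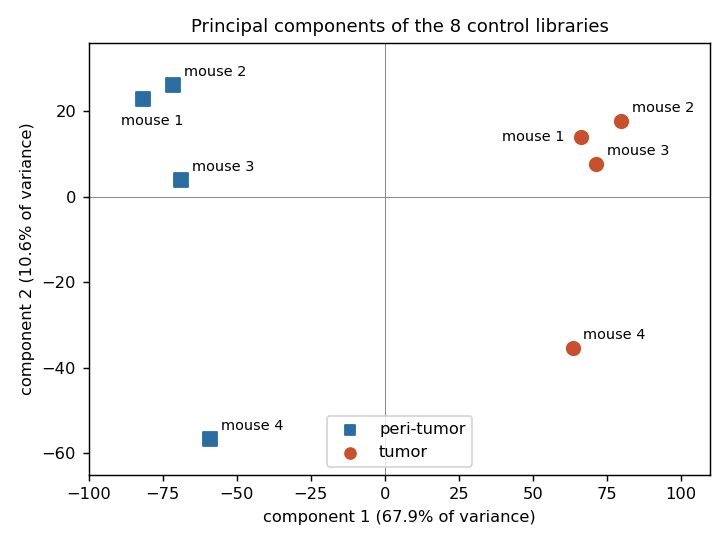
Position of the 8 control libraries on principal components 1 (67.9% of the variance, x axis) and 2 (10.6%, y axis) of log2 CPM over the genes tested, with squares for peri-tumor tissue and circles for tumors. The tissues lie at opposite ends of component 1, and both libraries of mouse 4 lie at the bottom of component 2, at -56.70 and -35.37.

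The tissue labels were checked on hepatocyte and tumor markers. All 12 hepatocyte markers were detected, at a sum of 106871–159033 CPM in peri-tumor tissue and 163631–214658 in tumors. The albumin gene Alb held much of this sum, with means of 67377.5 and 102479 CPM. Of the 12 markers 4 were called up and 2 down (median log2 0.02), against 22.0% and 21.2% of all genes. The sum therefore does not stand for the list as a whole. The tumor markers Gpc3 and Afp, given below, were high in all 4 tumors. Counts of the mouse gene Hras stood at 41.6, 34.5, 41.2 and 35.5 CPM in the peri-tumor tissue of mice 1 to 4 and at 39.9, 45.2, 41.9 and 31.4 in their tumors. The groups overlapped, and Hras did not pass the test (log2 0.05 ± 0.13 SE, edgeR adjusted p = 0.777). Whether transgene reads fall under Hras in the count is not stated in the sources used here, so this value does not check the genotype. Nras had 10.7–12.9 CPM in tumors and 6.43–21.5 in peri-tumor tissue, where mouse 3 alone was above all tumors (log2 0.09, edgeR adjusted p = 0.817), and without peri-tumor 3 it was called up (0.64, adjusted p 0.00349). Per transcript length, in the authors' FPKM, tumors held 4.97 ± 0.619 of Hras and 1.44 ± 0.147 of Nras (mean ± SD, n = 4), so that Nras was at the lower level.

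Of 52 RAS genes, RAS regulators and ERK feedback genes tested, 25 rose and 7 fell (median log2 0.36), against 22.0% and 21.2% of all genes. Here and below a list is counted over the members that passed the filter on low counts, and a member near 0 in one tissue passed through the other, so that its direction was given by the filter. Every list count below is to be read beside these shares of all genes, 22.0% up and 21.2% down. The phosphatase Dusp5, which acts on ERK in the nucleus, had 2.93, 1.27, 4.33 and 5.16 CPM in peri-tumor tissue and 63.4, 66.7, 47.0 and 49.1 in tumors (log2 4.05 ± 0.37 SE, edgeR adjusted p = 7.64e-07). The Sprouty gene Spry2 rose from below 1 CPM to 10.8, 14, 5.72 and 5.01, with tumors 1 and 2 above tumors 3 and 4 (log2 3.54). Both genes were higher in all 4 tumors with no overlap. Rasal1 and Rasa2, which code for proteins that switch RAS off, also rose (log2 4.38 and 2.23, tumors 9.58–12.2 and 7.46–11.3 CPM).

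Genes of the EGF family moved in both directions. The list, which also held other receptor kinases, had 11 of 30 genes up and 10 down, against 22.0% and 21.2% of all genes. Among ligands, betacellulin (Btc) had 1.27, 0.907, 1.27 and 2.58 CPM in peri-tumor tissue and 18.5, 17, 21.8 and 17.8 in tumors. The 4 tumors were close to each other and far above the peri-tumor libraries, the highest of which was that of mouse 4 (log2 3.64 ± 0.28 SE, edgeR adjusted p = 1.85e-07). Neuregulin 1 (Nrg1), a ligand of the ErbB receptors, went from 0.0605–0.891 to 22.3–33.7 CPM (log2 5.99, 6.61 without peri-tumor 3), and heparin-binding EGF (Hbegf) from 0.907–1.27 to 7.13–14.6 (log2 3.09). Amphiregulin (Areg) had 1 count over the 4 peri-tumor libraries and 127 over the tumors, a ratio of 127 with a 95% counting interval of 22.3 to 5040. Its tumor values of 1.14, 0.831, 4.95 and 1.19 CPM show tumor 3 well above the other three.

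The ligand TGF alpha differed between mice. Tgfa had 18, 13.7, 22.4 and 32.6 CPM in peri-tumor tissue and 13.5, 82.5, 84.3 and 101.1 in tumors, where tumor 1 lay at the level of peri-tumor tissue and the other three lay above all of it. It was called up (log2 1.70 ± 0.53 SE, edgeR adjusted p = 0.017), but not with the mouse as a block in all 16 libraries (adjusted p 0.0568), nor by limma-voom (0.134), nor without peri-tumor 2 (0.0543) or tumor 4 (0.0507). Other genes of the family fell. The EGF receptor gene Egfr had 711, 415, 602 and 641 CPM in peri-tumor tissue and 248.6, 249.9, 301 and 283 in tumors, with no overlap (log2 -1.13 ± 0.21 SE, edgeR adjusted p = 0.00045). Erbb4 fell from 2.54–5.30 to 0.193–0.836 CPM (log2 -3.14, -3.73 without tumor 4), and Errfi1, whose product inhibits the EGF receptor, fell by 0.62 on the log2 scale (edgeR adjusted p = 0.00786). Erbb3 overlapped between tissues and was not called (log2 -0.15, edgeR adjusted p = 0.684, log2 0.25 without peri-tumor 4). The collagen receptor kinase Ddr1 rose from 1.78–2.35 to 30.6–45.7 CPM (log2 4.13 ± 0.25 SE, edgeR adjusted p = 3.02e-08), among the lowest adjusted p of all genes.

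The list of fetal and other AP-1, ETS and SOX transcription factors had 22 rises among 32 tested, with 1 fall and a median of 1.28. Over all genes tested, 22.0% rose and 21.2% fell. The AP-1 subunit gene Junb had 34.6, 26.9, 42.1 and 53.2 CPM in peri-tumor tissue and 119.9, 128, 129 and 121 in tumors, an even level in the 4 tumors above all peri-tumor libraries (log2 1.66 ± 0.27 SE, edgeR adjusted p = 0.000134). Fosl1, another AP-1 subunit, stayed low at 1.37–2.44 CPM in tumors but was higher in all 4 (log2 2.72, edgeR adjusted p = 0.00221). Klf6, a zinc finger factor induced by growth signals, rose from 8.72–13.1 to 38.7–49.3 CPM, Sox4 from 0.828–3.93 to 15.5–28.7, Tead4, a partner of the coactivator YAP, from 0.191–0.827 to 4.94–6.51, and Runx2, best known from bone, from 0.0605–0.140 to 3.70–7.20 (log2 2.02, 3.19, 3.50 and 5.78).

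AP-1 binds the letters TGANTCA, and 200 bases before the start of 3 genes that rose are shown because they hold these letters, which are in capitals. Plaur codes for the urokinase receptor, F11r for a tight junction protein and Anxa2 for annexin A2, and the sequences are from RefSeq promoters on GRCm38.p6, plus strand, at chr7:24462283-24462482, chr1:171437361-171437560 and chr9:69453483-69453682.
Plaur: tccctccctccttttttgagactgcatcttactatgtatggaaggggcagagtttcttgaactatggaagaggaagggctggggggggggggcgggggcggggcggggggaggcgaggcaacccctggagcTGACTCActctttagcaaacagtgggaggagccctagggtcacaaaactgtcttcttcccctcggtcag
F11r: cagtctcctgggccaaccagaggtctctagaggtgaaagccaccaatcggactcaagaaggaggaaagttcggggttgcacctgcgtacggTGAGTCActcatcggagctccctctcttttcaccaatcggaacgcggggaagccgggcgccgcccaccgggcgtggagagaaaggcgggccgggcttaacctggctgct
Anxa2: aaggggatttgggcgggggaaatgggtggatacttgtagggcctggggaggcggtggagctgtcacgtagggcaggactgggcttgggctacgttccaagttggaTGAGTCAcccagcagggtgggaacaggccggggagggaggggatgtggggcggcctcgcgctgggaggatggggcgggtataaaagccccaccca
Counted back from the base before the start as -1, the match begins at -69 in Plaur and -95 in Anxa2 and lies further out in F11r. Plaur rose from 0.488–1.03 to 5.83–7.28 CPM (log2 3.04), F11r from 70.8–77.1 to 181–199 (log2 1.38) and Anxa2 from 7.90–14.2 to 150.1–283 (log2 4.05), each with no overlap. In windows from 250 bases before to 50 after the start, searched on both strands, TGANTCA was present in 8.11% of 1579 promoters of genes that rose at least 2-fold, in 6.77% of 1182 promoters of genes that fell at least 2-fold, in 5.46% of 13473 promoters of tested genes and in 7.81% of all 32851 promoters. The letters are a description of the sequence and do not show binding.

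Of 38 genes of senescence and CDK inhibition, 23 rose and 1 fell (median log2 0.87). Cdkn2b, the p15 inhibitor of the kinases CDK4 and CDK6, had 0.191, 0.605, 0.636 and 0.488 CPM in peri-tumor tissue and 83.0, 119.8, 73.0 and 51.2 in tumors (log2 7.38 ± 0.46 SE, edgeR adjusted p = 3.12e-08). Its neighbor Cdkn2a, the gene of p16 and Arf, went from 0–0.382 to 13.6–32.3 CPM (log2 6.56), and Cdkn1a, the gene of p21, from 3.25–5.99 to 53.4–89.0 (log2 4.06). None of the 3 overlapped between tissues. Per transcript length, tumors held more Cdkn2b (62.1 ± 20.02 FPKM) than Cdkn2a (16.6 ± 5.70) or Cdkn1a (12.2 ± 2.75). Phlda3 (tumors 28.3–57.3 CPM, log2 4.41), Mdm2 (43.1–72.2, 1.44) and Ccng1 (82.2–132, 1.31), each known to be induced by p53, also rose, and other targets of p53 were not counted.

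The proliferation marker Mki67 had 3.12, 3.02, 4.33 and 2.93 CPM in peri-tumor tissue and 13.1, 12.4, 13.5 and 15.9 in tumors, without overlap and with little spread between the 4 tumors (log2 2.03 ± 0.41 SE, edgeR adjusted p = 0.000879). Cyclin D1 (Ccnd1), which starts the cell cycle with CDK4, rose from 28.7–49.9 to 119–163 CPM (log2 1.86). Of 56 genes of DNA replication and repair, 21 rose and 5 fell, 13 up without tumor 3. Mcm2, a subunit of the replicative helicase, had 2.55, 2.36, 3.69 and 9.14 CPM in peri-tumor tissue, highest in mouse 4, and 11.8, 12.5, 13.4 and 16.2 in tumors (log2 1.61), with 2.23 without peri-tumor 4. Mcm10, a replication initiation factor, fell from 16.8–54.97 to 4.50–13.6 CPM (log2 -2.03 ± 0.32 SE, edgeR adjusted p = 0.000105). Death receptor genes were among the apoptosis genes that rose (17 up and 5 down of 41, 8 down without mouse 4). The TWEAK receptor Tnfrsf12a had 6.72–11.6 CPM in peri-tumor tissue and 72.4–114 in tumors (log2 3.20 ± 0.20 SE, edgeR adjusted p = 3.12e-08), and the TRAIL receptor Tnfrsf10b rose by 5.12 on the log2 scale.

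Many of the highest folds were seen in genes at a few CPM or less in peri-tumor tissue. The gene Ly6d, of a membrane-anchored surface protein, had 2.42, 3.51, 5.73 and 3.70 CPM in peri-tumor tissue and 569, 774, 512 and 715 in tumors (log2 7.38 ± 0.86 SE, edgeR adjusted p = 7.03e-06). All 4 tumors were far above the highest peri-tumor library, that of mouse 3. The proteoglycan gene Gpc3, a marker of liver tumors, stood at 761, 701, 373 and 294 CPM in tumors, with tumors 1 and 2 above 3 and 4, and Afp, the fetal plasma protein, at 668, 944, 257 and 378, again highest in tumors 1 and 2. Their peri-tumor values were 2.30–6.36 and 2.29–7.95 CPM, with mouse 3 the highest in both. The kinesin gene Kif5c, best known from neurons, had 123–226 CPM in tumors against 0.0637–2.86 (log2 7.19, 8.204 without peri-tumor 3), and the hormone gene Stc1 16.4–30.0 against 0–0.254 (log2 7.497, 8.23 without peri-tumor 3). Alox5, the lipoxygenase that starts leukotriene synthesis, was higher in all 4 tumors (log2 7.23). So was Klrb1b, a receptor gene of NK cells, at 62.3–111 CPM (log2 7.18), whose value is uncertain since 29.0% of its 50-base words also occur in other genes. Both are known from immune cells. The 11 T and NK cell markers tested summed to 7.94–21.7 CPM in tumors and none was called, while all 9 recruited macrophage markers rose. Which cells made either RNA was not tested. In bulk tissue fewer or more cells of a type and less or more RNA per cell cannot be told apart. Among genes that rose, Cd63, a tetraspanin of late endosomes, had the lowest adjusted p together with its pseudogene, with 2.80, 3.75, 4.39 and 3.77 CPM in peri-tumor tissue and 127, 129, 114 and 99.1 in tumors (log2 4.99 ± 0.24 SE, edgeR adjusted p = 2.99e-09).

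**Figure D2:**
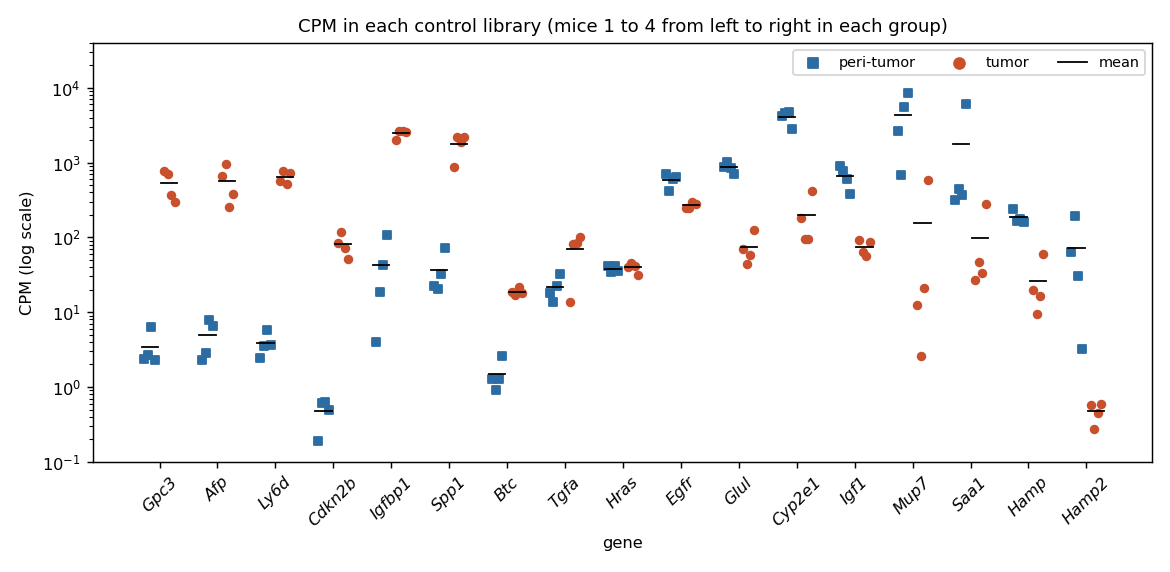
CPM on a log scale (y axis) of 17 genes (x axis) in each of the 8 control libraries, squares for peri-tumor tissue and circles for tumors, with mice 1 to 4 from left to right and a bar at the mean of 4. Gpc3, Afp, Ly6d, Cdkn2b, Igfbp1, Spp1 and Btc lie higher in all 4 tumors, Hras overlaps between tissues, and tumor 4 is the highest tumor for Glul, Cyp2e1, Mup7, Saa1 and Hamp.

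Some genes best known from the intestine were expressed in these tumors. Of 38 in the list, 18 passed the filter on low counts, those near 0 in peri-tumor tissue through the tumors alone, and the other 20 were not tested. Of those tested 12 rose and 2 fell, which is a description and not a result about the list. Liver-intestine cadherin (Cdh17) had 0, 0.484, 1.27 and 0.558 CPM in peri-tumor tissue and 67.6, 133, 85.3 and 277 in tumors, highest in tumor 4 (log2 7.91 ± 1.15 SE, edgeR adjusted p = 5.25e-05, log2 8.64 without peri-tumor 3). Tetraspanin 8 (Tspan8) stood at 292, 297, 309.8 and 359 CPM in tumors, an even level, against 0.892–6.36 in peri-tumor tissue. The brush border protease Mep1a and the keratin Krt20 were at 0 counts in each of the 4 peri-tumor libraries and had 274 and 125 counts over the tumors, at least 91.0-fold and 41.5-fold higher taking 3 counts over the group as the floor. Their tumor values ran over 2.69–7.76 and 0.888–3.53 CPM. The brush border cadherin Cdhr2 and the trypsin inhibitor Spink1 were at 14.9–33.3 and 41.0–72.2 CPM in tumors, each against less than 1. The members that fell were the immunoglobulin transporter Pigr, which had 1778, 1719, 1474 and 1196 CPM in peri-tumor tissue and 87.8, 129.8, 90.6 and 180.1 in tumors (log2 -3.66 ± 0.60 SE, edgeR adjusted p = 0.000151), and Cdhr5 (log2 -1.12). Tff3, a peptide of mucus-making cells, was uneven in peri-tumor tissue at 9.55, 1.94, 38.8 and 52.2 CPM and lay at 83.7–218 in tumors (log2 2.41, edgeR adjusted p = 0.0181, log2 3.02 without peri-tumor 4). It lost the call without peri-tumor 1 (adjusted p 0.0537), without tumor 1 (0.0506) and with the mouse as a block in the 8 control libraries (0.0554).

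Genes of cell shape were among the groups with the most rises. Of 50 keratin, tubulin and actin cytoskeleton genes, 31 rose and 2 fell (median log2 1.03), and of 19 annexin and S100 genes 11 rose and 2 fell. The actin-binding protein gene Tagln2 had 15.3, 21.0, 20.3 and 16.6 CPM in peri-tumor tissue and 110.5, 124, 94.6 and 105.9 in tumors (log2 2.57 ± 0.16 SE, edgeR adjusted p = 3.19e-08). Tubb6, a beta tubulin, rose from 9.98–16.3 to 57.9–69.97 CPM, and Tubb2a from 32.5–46.2 to 246–295, the latter uncertain with 49.6% of its 50-base words in other genes. The hepatocyte keratin Krt18 rose by 1.92 on the log2 scale (104–159.7 to 456–625 CPM). The annexin genes Anxa2 and Anxa5 rose, Anxa2 to 166, 150.1, 182 and 283 and Anxa5 to 159.5, 159.6, 154 and 258 CPM, with tumor 4 highest in both (log2 4.05 and 1.48). Of 31 tight junction and adhesion genes 12 rose and 3 fell.

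Imprinted genes, expressed from a single parental copy and many of them high in fetal liver, differed in level between tumors. Of 31 in the list, 21 passed the filter and 10 were not tested, and 11 rose and 3 fell. The growth factor gene Igf2 had 0, 0.121, 0 and 0.209 CPM in peri-tumor tissue and 0.127, 9.56, 4.05 and 0.597 in tumors. Tumors 2 and 3 were high and tumor 1 lay within the peri-tumor range (log2 5.33 ± 1.62 SE, edgeR adjusted p = 0.0146). The log2 fold was 4.15 without tumor 2 and 6.17 without peri-tumor 4. The call was lost without tumor 2 (adjusted p 0.059) and by limma-voom (0.154), and 75.9% of its 50-base words occur in other genes. The noncoding RNA H19 was at 6.02, 18.1, 3.41 and 3.82 CPM in tumors against 0.209–1.02, also highest in tumor 2 (log2 3.87, 3.03 without it). Grb10, an adaptor that dampens insulin signaling, had 1.72, 4.84, 4.52 and 4.26 and 24.2, 39.6, 14.6 and 17.1 CPM (log2 2.63 ± 0.34 SE, edgeR adjusted p = 1.68e-05), again highest in tumor 2 but without overlap. Igf2r, whose receptor clears IGF2, rose from 43.1–79.5 to 111–152 CPM (log2 1.29). The fetal RNA-binding protein gene Igf2bp3 stayed at or below 1.55 CPM and overlapped in tumor 3 (log2 3.18, edgeR adjusted p = 0.0229). Its call was lost by limma-voom (0.102), without mouse 4 (0.126, log2 2.53), and without peri-tumor 1, peri-tumor 3 or tumor 4 alone, and its log2 fold was 3.92 without peri-tumor 2.

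Factors that keep the identity of hepatocytes had more falls than rises, 18 and 3 of 30 (median log2 -0.59). The drug sensor CAR (Nr1i3) had 122, 139.8, 98.9 and 35.9 CPM in peri-tumor tissue and 12.4, 16.5, 12.3 and 12.5 in tumors. All tumors were lower, and peri-tumor 4 was the lowest of its group (log2 -2.89 ± 0.33 SE, edgeR adjusted p = 5.02e-06). The bile acid receptor FXR (Nr1h4) fell from 61.9–141 to 31.9–37.2 CPM (log2 -1.61), Cebpa, a factor of mature hepatocytes, from 459–799 to 306–353 (log2 -1.02), and Tbx3, a pericentral factor, from 21.8–28.3 to 2.08–6.51 (log2 -2.71). Onecut2 was uneven in tumors at 4.69, 16.6, 3.41 and 27.8 CPM, high in tumors 2 and 4, yet below all peri-tumor libraries, of which the lowest was at 48.2. Hnf4a, the central factor of the hepatocyte program, had 787, 824, 720.0 and 728 CPM in peri-tumor tissue and 691, 755, 653 and 589 in tumors, which overlapped (log2 -0.19 ± 0.12 SE, edgeR adjusted p = 0.215). Foxa3 was called up (log2 0.75, edgeR adjusted p = 0.0359), with peri-tumor 2 apart at 33.6 CPM, and lost the call without that library (adjusted p 0.115). The call was also lost without peri-tumor 3 or any of tumors 1 to 3.

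HNF4A binds the letters CAAAGTCCA. They are printed in capitals in the 200 bases before the start of 2 genes of bile acid and steroid or drug metabolism that fell, Cyp8b1 and Cyp2c69, from RefSeq promoters on GRCm38.p6, minus strand, at chr9:121916306-121916505 and chr19:39886770-39886969.
Cyp8b1: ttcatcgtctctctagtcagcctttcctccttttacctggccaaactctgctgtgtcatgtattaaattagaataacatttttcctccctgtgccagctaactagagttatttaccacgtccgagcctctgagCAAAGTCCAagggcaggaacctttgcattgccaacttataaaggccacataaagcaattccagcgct
Cyp2c69: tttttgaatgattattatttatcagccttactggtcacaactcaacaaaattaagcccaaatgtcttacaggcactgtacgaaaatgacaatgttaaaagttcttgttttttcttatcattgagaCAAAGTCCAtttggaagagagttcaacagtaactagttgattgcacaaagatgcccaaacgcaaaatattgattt
Cyp8b1, the sterol hydroxylase that sets the kind of bile acid made, fell from 9.49–18.3 to 1.41–2.81 CPM (log2 -2.73 ± 0.49 SE, edgeR adjusted p = 0.000345). Cyp2c69 fell from 20.9–353 to 3.16–5.39 CPM (log2 -5.26, -4.59 without peri-tumor 2), and 54.8% of its 50-base words occur in other genes. In 300-base windows searched on both strands, CAAAGTCCA was found in 18 of 1182 promoters of genes that fell at least 2-fold (1.52%), in 2 of 1579 of genes that rose at least 2-fold (0.127%), in 0.534% of tested genes' promoters and in 0.475% of all. These shares were counted after a search of several motifs, they were not tested, and a match does not show binding.

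Several genes known from the pericentral zone fell, of which those named here were not taken from a list of the zone. Glutamine synthetase (Glul), confined to the hepatocytes next to the central vein, had 879.7, 1027, 838 and 713 CPM in peri-tumor tissue and 69.8, 44.7, 58.4 and 125 in tumors, highest in tumor 4 (log2 -3.54 ± 0.36 SE, edgeR adjusted p = 1.99e-06). Of the targets of Wnt signals, Axin2 went from 5.999–6.78 to 0.380, 0.139, 0.450 and 1.49 CPM, Lgr5 from 3.15–7.67 to 0.507–1.19, and Notum from 22.3–33.3 to 1.84–3.28 (log2 -3.30, -2.49 and -3.56, with -4.25 for Axin2 without tumor 4). The ligand Wnt2 and the Wnt amplifier Rspo3, both made by endothelial cells of the central vein, fell by 2.44 and 1.74 on the log2 scale. In all, 16 of 36 Wnt and Hedgehog genes fell and 6 rose. The rises included beta-catenin itself (Ctnnb1), with 197, 226, 166 and 184 CPM in peri-tumor tissue and 312, 337, 311 and 199.8 in tumors, where tumor 4 lay within the peri-tumor range (log2 0.58 ± 0.17 SE, edgeR adjusted p = 0.0128). Without tumor 2 this call was lost (adjusted p 0.0529). The ethanol-oxidising P450 Cyp2e1 had 4253, 4659.6, 4729 and 2803 CPM in peri-tumor tissue and 179, 95.6, 96.2 and 419 in tumors (log2 -4.38 ± 0.54 SE, edgeR adjusted p = 1.22e-05), -5.07 without tumor 4. Carbonic anhydrase 3 (Car3) fell from 963–2644 to 16.3–239 CPM and the rate-limiting enzyme of bile acid synthesis, Cyp7a1, from 13.4–208 to 1.35–7.10 (log2 -4.19 and -4.88), with -5.28 for Car3 without tumor 4 and -5.50 for Cyp7a1 without tumor 1.

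Transporters of the hepatocyte surface fell more often than they rose. Of 36 transporters of bile acids and organic anions, 18 fell and 9 rose (median log2 -0.41). Slco1b2, which takes up bilirubin and drugs from blood, had 846, 971, 1013 and 798 CPM in peri-tumor tissue and 57.8, 36.4, 44.0 and 156 in tumors (log2 -3.62 ± 0.46 SE, edgeR adjusted p = 1.48e-05), with tumor 4 highest of the tumors and -4.31 without it. The bile salt uptake protein Slc10a1 fell from 282–501 to 49.9–77.0 CPM, and Slco2b1 from 151–215 to 25.3–34.0 (log2 -2.51 and -2.61). Abcc2, the pump for conjugates into bile, rose from 389–433 to 645–883 CPM, and Abcc4, a pump toward blood, from 3.31–9.26 to 16.9–29.7 (log2 0.91 and 1.97). Neither overlapped between tissues. The bile salt export pump Abcb11, in contrast, fell from 239–617 to 100.2–172 CPM (log2 -1.501).

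The methionine cycle and the synthesis of serine moved in opposite directions within a list in which 22 of 43 genes fell and 11 rose. Gnmt, the enzyme that uses up surplus S-adenosylmethionine, had 1041, 1438, 1029 and 509.6 CPM in peri-tumor tissue and 104.9, 67.3, 107.9 and 56.0 in tumors (log2 -3.58 ± 0.39 SE, edgeR adjusted p = 3.69e-06). Mat1a, which makes this methyl donor in adult liver, fell from 1297–4020.4 to 671–1134 CPM, and Pemt, a methyltransferase of phospholipid synthesis, from 218–343 to 53.5–58.0 (log2 -1.72 and -2.40). Nnmt, which methylates nicotinamide, fell from 122–202 to 1.35–10.7 CPM (log2 -5.14, -6.05 without tumor 4). In contrast, Psat1 of serine synthesis had 1.53, 0.847, 3.50 and 5.44 CPM in peri-tumor tissue and 112, 141, 66.8 and 75.8 in tumors (log2 5.14 ± 0.45 SE, edgeR adjusted p = 5.2e-07, log2 5.73 without mouse 4). Phgdh, the first enzyme of that pathway, rose by 4.29, a value that is uncertain with 63.1% shared words, and asparagine synthetase (Asns) by 4.30, or 5.16 without peri-tumor 4. The cystine carrier Slc7a11 rose from 0.255–1.78 to 56.1–163 CPM (log2 6.87, 7.59 without peri-tumor 3), while the glutamate carrier of pericentral cells, Slc1a2, fell from 141–234 to 1.80–19.2 (log2 -4.57, -5.50 without tumor 4). Of 27 amino acid transporters 10 rose and 8 fell.

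**Figure D3:**
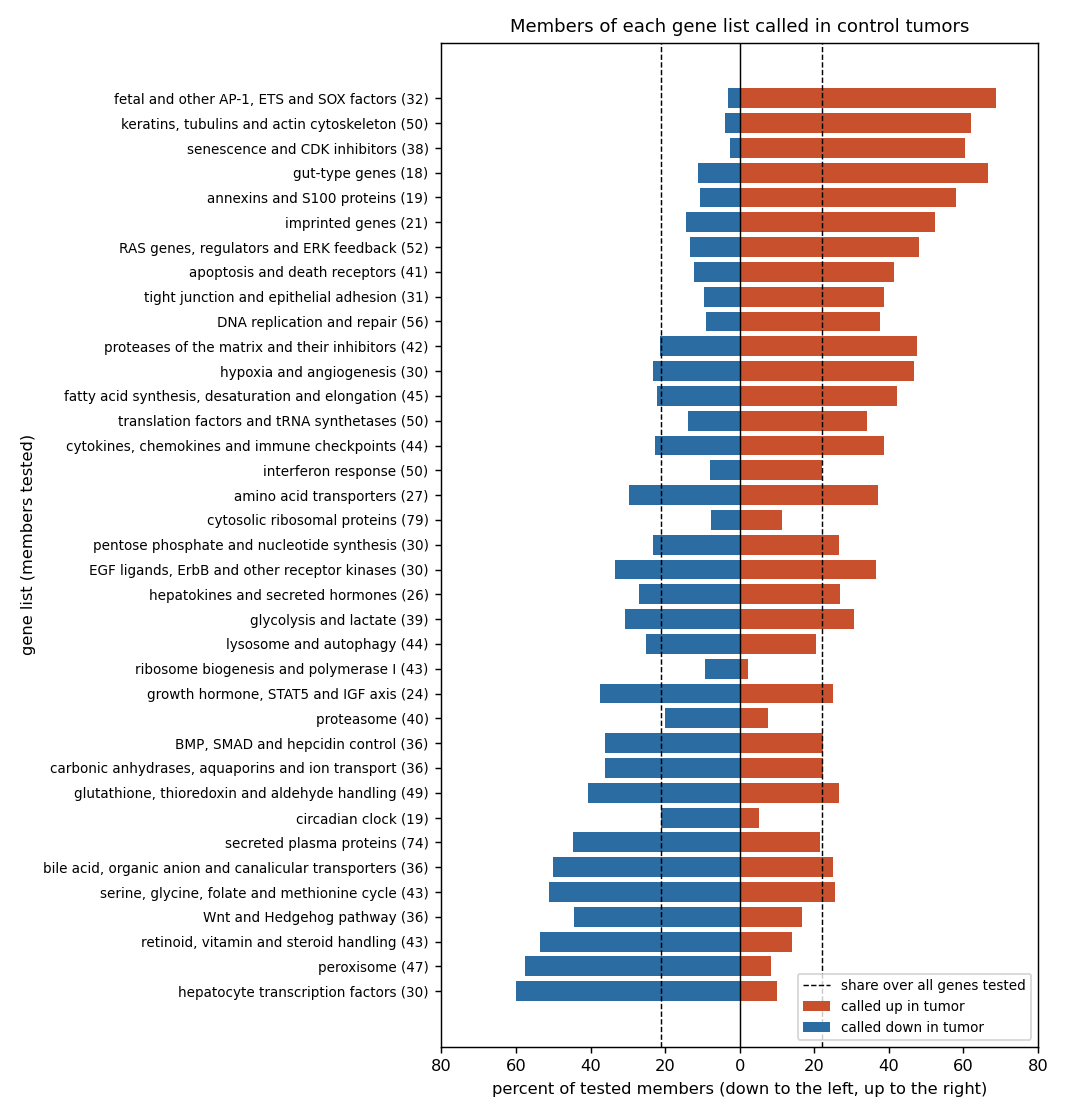
Percent of tested members called up (right) or down (left) in control tumors (x axis) for each of 37 gene lists (y axis, members that passed the filter on low counts in parentheses), with dashed lines at the shares over all genes tested, 22.0% up and 21.2% down. AP-1, ETS and SOX factors have the largest surplus of rises (22 of 32) and hepatocyte transcription factors the largest surplus of falls (18 of 30).

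In sugar and fat metabolism, the desaturase genes Scd1 and Scd2 moved in opposite directions. Of 39 genes of glycolysis and lactate, 12 rose and 12 fell. Hkdc1, a hexokinase low in adult liver, rose from 0–0.318 to 2.92–14 CPM (log2 5.21, edgeR adjusted p = 0.00359, 0.092 by limma-voom), with tumor 4 the highest and log2 4.57 without it. The liver pyruvate kinase Pklr went from 72.4 ± 25.6 to 32.2 ± 7.97 FPKM and the other isoform Pkm from 4.16 ± 0.908 to 12.8 ± 5.65, so Pklr remained above Pkm in the tumor mean. Pkm differed by 1.504 on the log2 scale and is uncertain, with 34.4% of its words shared. The desaturase Scd1, among the most abundant RNAs of peri-tumor tissue, had 14591, 24309.6, 10797 and 6672 CPM there and 5518, 5436, 5142 and 5602 in tumors (log2 -1.38 ± 0.31 SE, edgeR adjusted p = 0.00223). Its relative Scd2 rose from 15.0–29.3 to 417–627 CPM (log2 4.69), and per length Scd1 was still the higher in tumors (1194 ± 67.6 against 107.5 ± 19.7 FPKM).

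Some lipid synthesis genes were uneven across the peri-tumor libraries. The lipogenic factor Srebf1 had 1261, 1385, 954 and 337 CPM in peri-tumor tissue and 278, 293, 183 and 160.4 in tumors, and Thrsp, a gene induced by feeding, 1134, 2137, 1019 and 260.4 and 131, 109.9, 167 and 90.6. In both, peri-tumor 4 was the lowest of its group and all tumors lay below it (log2 -2.11 and -3.19). Fatty acid synthase (Fasn) ran over 582–2632 CPM in peri-tumor tissue and overlapped with tumors (log2 -0.40 ± 0.43 SE, edgeR adjusted p = 0.483). The lipid droplet coat gene Plin2 rose from 151–358 to 765–1047 CPM (log2 2.002), and Elovl7, an elongase, from 0.0636–0.484 to 11.2–19.7 (log2 6.04, 6.64 without peri-tumor 2). Cidea, another lipid droplet gene, had 1 count over peri-tumor tissue and 209 over tumors, a ratio of 208 (95% counting interval 37.0 to 8260). Of 45 genes of fatty acid synthesis, desaturation and storage, 19 rose and 10 fell. Peroxisomal genes fell in 27 of 47 cases and rose in 4, catalase (Cat) among the falls with 1997–2178 CPM in peri-tumor tissue and 866–1313 in tumors (log2 -0.99 ± 0.14 SE, edgeR adjusted p = 3.94e-05). In retinoid, vitamin and steroid handling, 23 of 43 genes fell and 6 rose.

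The growth hormone receptor gene and Igf1 fell in tumors. The receptor gene Ghr had 389, 429, 498 and 399 CPM in peri-tumor tissue and 79.6, 67.2, 79.4 and 126 in tumors (log2 -2.28 ± 0.19 SE, edgeR adjusted p = 2.81e-07). Igf1, the growth factor that liver releases in response to growth hormone, fell from 377–898 to 56.8–92.2 CPM (log2 -3.16), and Igfals, its carrier in blood, from 41.7–182 to 3.79–10.6 (log2 -3.65). The genes of IGF binding proteins did not move together. Igfbp4 fell from 2078–2332 to 1336–1753 CPM (log2 -0.47, edgeR adjusted p = 0.0206, lost without peri-tumor 3 at 0.051 and without tumor 4 at 0.0561), and Igfbp2 overlapped between tissues (log2 -0.45, edgeR adjusted p = 0.348). Igfbp1 had 4.01, 18.8, 42.1 and 107.9 CPM in peri-tumor tissue, lowest in mouse 1 and highest in mouse 4, and 1972, 2617, 2645 and 2565 in tumors (log2 5.83 ± 0.79 SE, edgeR adjusted p = 2.87e-05). The tumors were close together and all far above peri-tumor tissue, and the log2 fold was 6.82 without peri-tumor 4 and 6.57 with the mouse as a block in all 16 libraries. Igfbp3 rose from 10.3–17.9 to 254–649 CPM, with tumor 2 apart (log2 4.86). Of 24 genes of this axis 6 rose and 9 fell, or 14 fell with the mouse as a block in all 16 libraries.

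Subunits and relatives within detoxification also parted, with 13 of 49 genes of glutathione, thioredoxin and aldehyde handling up and 20 down. Glutamate-cysteine ligase makes the precursor of glutathione from a catalytic subunit, Gclc, and a modifier subunit, Gclm. Gclc had 147, 162, 204 and 223 CPM in peri-tumor tissue and 537, 518, 769 and 423 in tumors (log2 1.61 ± 0.24 SE, edgeR adjusted p = 6.66e-05), while Gclm had 162, 217, 181 and 172 and 78.5, 68.9, 79.1 and 112 (log2 -1.11 ± 0.22 SE, edgeR adjusted p = 0.000853). The catalytic subunit was higher and the modifier lower in every tumor. The peroxidase Gpx1 fell from 477–1246 to 127–195 CPM (log2 -2.41), and mitochondrial aldehyde dehydrogenase (Aldh2) from 1253–1940.3 to 718–869.9 (log2 -1.11). Of the aldo-keto reductases, Akr1c18 rose from 1.51–10.5 to 271–344 CPM and Akr1c6 fell from 562–773 to 54.0–169 (log2 5.78 and -2.50). In the list of nucleotide synthesis, 8 of 30 genes rose and 7 fell, and in that of carbonic anhydrases, aquaporins and ion transport 8 and 13 of 36.

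Secreted signals and proteases were changed in both directions. Of 44 cytokine, chemokine and checkpoint genes 17 rose and 10 fell. Lymphotoxin beta (Ltb), a signal to lymphoid tissue, had 0.573, 1.63, 1.84 and 0.558 CPM in peri-tumor tissue and 41.4, 29.6, 42.3 and 15.8 in tumors (log2 4.79 ± 0.52 SE, edgeR adjusted p = 3.22e-06), higher in all 4. The chemokine Cxcl12, which holds blood cell precursors and lymphocytes in place, had 284, 290.4, 257 and 204 and 49.4, 49.0, 41.0 and 52.3 CPM (log2 -2.43 ± 0.14 SE, edgeR adjusted p = 2.55e-08), lower in all 4. The stress hormone Fgf21 rose from 0.0698–0.827 to 2.51–23.0 CPM (log2 4.86), one of 7 rises and 7 falls among 26 genes of liver hormones. Of 42 proteases of the matrix and their inhibitors 20 rose and 9 fell. The membrane protease St14 rose from 0.318–0.544 to 6.72–17.5 CPM and tissue plasminogen activator (Plat) from 0–0.488 to 7.48–9.07 (log2 4.84 and 5.24, with 5.95 for Plat without peri-tumor 4). Of 30 genes of hypoxia and angiogenesis 14 rose and 7 fell.

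Major urinary proteins, carriers of pheromones that male liver makes in response to growth hormone pulses, fell and were the most uneven genes among tumors. Among genes called and at 20 CPM or more on average in tumors, the 8 with the largest spread over the 4 tumors were all of this family. Mup7 had 2676, 688, 5527 and 8601 CPM in peri-tumor tissue and 12.4, 2.56, 20.9 and 589 in tumors. Mouse 2 was the lowest and mouse 4 the highest in both tissues, and the groups did not overlap (log2 -4.81 ± 1.40 SE, edgeR adjusted p = 0.0112, log2 -8.53 without tumor 4, -7.98 without mouse 4 and -7.07 with the mouse as a block in all 16 libraries). The value is uncertain, since 90.2% of its 50-base words occur in other genes. Mup3 had 6204, 4048, 8104 and 6060.4 and 396, 241, 446 and 1430.1 CPM (log2 -3.28, -4.09 without tumor 4), while Mup20, with 50.5% of words shared, overlapped between tissues (46.4–1458 and 362–1375 CPM, log2 0.46, edgeR adjusted p = 0.61, log2 1.23 without peri-tumor 4). In peri-tumor tissue the same order of mice was seen in Hsd3b5, a steroid enzyme of male liver, at 38.8, 2.42, 121 and 292 CPM, and the reverse in Cux2, a factor of female-type liver expression, at 65.9, 72.6, 3.56 and 0.0698.

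More plasma protein genes fell than rose, and the difference in their share of the counts did not pass the test after adjustment. They held 28.8% ± 3.82 of all counts in peri-tumor tissue and 35.8% ± 2.17 in tumors (SD, n = 4), with tumor 4 below peri-tumor 4 and the other three mice higher in the tumor (exact permutation p = 0.0571, 0.0714 after adjustment over 5 measures of composition, smallest possible 0.0286). Of 74 tested, 33 fell and 16 rose (median log2 -0.38). Albumin (Alb), the most abundant RNA, had 73848, 49889, 71833 and 73939.5 CPM in peri-tumor tissue and 104932, 114212, 107751 and 83022 in tumors. Every tumor was higher, but the call was at the threshold (log2 0.60 ± 0.24 SE, edgeR adjusted p = 0.0491) and was lost in the 8 control libraries alone (0.063, 0.0717 with the mouse as a block), with other filters on low counts (0.0587 and 0.0511) and without any 1 library other than peri-tumor 4 and tumor 4 (0.067 to 0.145). Apolipoprotein A4 (Apoa4), a gene of the intestine and of the lipid-loaded liver, had 469, 303, 539 and 689 CPM in peri-tumor tissue and 6936, 5118, 6237 and 5471 in tumors (log2 3.57 ± 0.39 SE, edgeR adjusted p = 3.63e-06). Kininogen (Kng1) rose by 1.06 and fetuin A (Ahsg) by 0.95 on the log2 scale. The steroid-hydroxylating P450 gene Cyp2a4 was, in CPM, among the largest gains, with 117, 176, 304 and 29.8 in peri-tumor tissue and 6777, 6701, 6892 and 3095 in tumors, lowest in mouse 4 in both tissues (log2 5.23 ± 0.94 SE, 38.0% of words shared).

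Among plasma protein falls, the protease inhibitor Serpina3k went from 6332–13552 to 1365–3909 CPM, vitronectin (Vtn) from 2348–2882 to 961–1020.1, apolipoprotein E (Apoe) from 7801–14403 to 2149–6736 and the acute phase protein Orm3 from 14.7–43.7 to 0.119–0.514 (log2 -2.22, -1.44, -1.18 and -6.50). For Apoe, adjusted p was 0.0273 by edgeR and passed 0.05 without peri-tumor 1 or 3 or tumor 2 or 4 (0.052 to 0.0743). Serum amyloid A stood out by mouse. Saa1 had 313, 444, 373 and 5984 CPM in peri-tumor tissue and 27.3, 46.3, 33.7 and 280.1 in tumors, and Saa2 119, 259, 137 and 6120.2 and 11.7, 21.7, 11.2 and 157. Mouse 4 was far above the other peri-tumor libraries in both genes and also the highest tumor, and within each mouse the tumor was lower. Without mouse 4 both were still called down (log2 -3.43 and -3.57), but not without peri-tumor 4 alone (log2 -1.96 and -1.77, adjusted p 0.0516 and 0.146). Without tumor 4 alone the log2 folds were -5.64 and -6.81, and 32.1% and 31.8% of their words are shared. Some abundant plasma protein genes were not called, with F2 (prothrombin) at 1929.8–2109.9 CPM in peri-tumor and 1633–2364 in tumor tissue (log2 0.02, edgeR adjusted p = 0.904) and Selenop at 5147–6945 and 5661–6683 (log2 0.01, 0.953), on either side of 0 with 1 or another library left out.

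**Figure D4:**
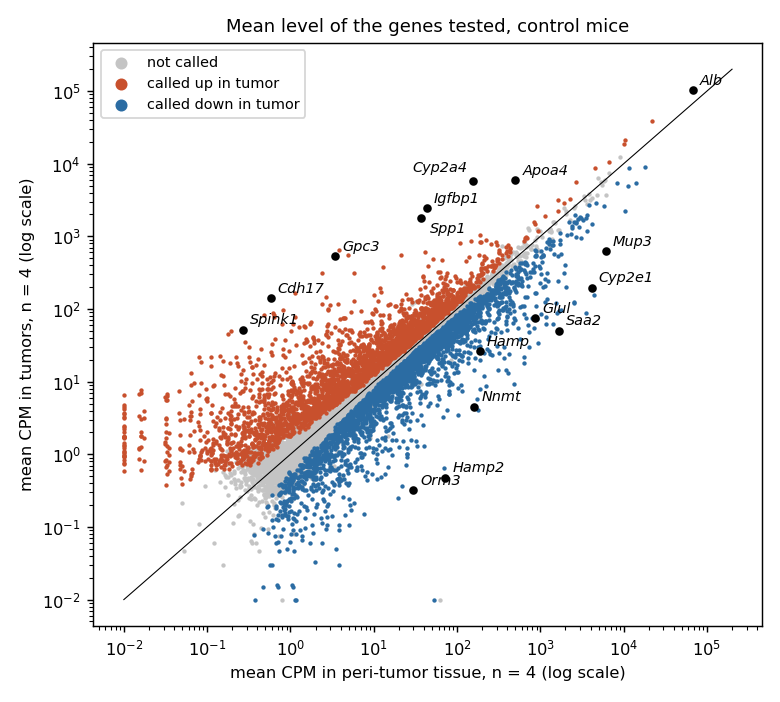
Mean CPM of 4 tumors (y axis) against mean CPM of 4 peri-tumor libraries (x axis) for the 14865 genes tested, both on log scales, with genes called up, called down and not called in 3 colors, genes under 0.01 CPM drawn at 0.01 and 16 genes of the text labelled. Alb lies near the line of equal levels, Apoa4, Cyp2a4, Igfbp1 and Spp1 are the labelled abundant genes above it, and Mup3, Cyp2e1 and Saa2 lie below.

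Transcripts of the mitochondrial genome held 4.73% ± 0.342 of the counts in peri-tumor tissue and 2.80% ± 0.546 in tumors, lower in the tumor of every mouse (exact permutation p = 0.0286, the smallest possible, 0.0714 after adjustment over 5 measures). More genes reached 1 CPM in tumors, 13472.5 ± 274 against 12999.8 ± 166 (exact permutation p = 0.0286, adjusted 0.0714), with tumor 4 the highest at 13861. Without peri-tumor 4, the adjusted p of the mitochondrial, the plasma protein and the 50 largest genes' shares was 0.0476 each. With any other library left out, the adjusted p of these shares was 0.0714 to 0.107 (exact permutation tests). Ribosomal protein genes held 0.832% ± 0.120 and 0.933% ± 0.0611 (exact permutation p = 0.171). Genes of the basic machinery were called at a share below or near that of all genes (43.2%). Of 43 genes of ribosome biogenesis, 1 rose and 4 fell, of 79 ribosomal protein genes 9 and 6, of 40 proteasome genes 3 and 8, of 19 clock genes 1 and 4 (4 and 9 with the mouse as a block in all 16 libraries), of 44 lysosome and autophagy genes 9 and 11, of 50 translation factor and tRNA synthetase genes 17 and 7, and of 50 interferon response genes 11 and 4.

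Hepcidin, the peptide hormone that blocks iron export from cells, was lower in every tumor. Mice have a pair of hepcidin genes, Hamp, the active hormone, and Hamp2, its near-identical neighbor. The 200 bases before the start of both are shown because their readouts differed in size (RefSeq promoters on GRCm38.p6, minus strand, chr7:30944030-30944229 and chr7:30924182-30924381). Capitals mark GGCGCC, a core of the BMP response element read by SMAD proteins, TTCNNNGAA, read by STAT proteins, and TGANTCA, read by AP-1, and each window is read 5′ to 3′ along its gene.
Hamp: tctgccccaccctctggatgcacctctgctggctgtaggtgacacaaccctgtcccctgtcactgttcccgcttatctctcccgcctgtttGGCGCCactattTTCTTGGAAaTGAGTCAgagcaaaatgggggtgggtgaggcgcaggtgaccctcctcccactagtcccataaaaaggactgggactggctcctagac
Hamp2: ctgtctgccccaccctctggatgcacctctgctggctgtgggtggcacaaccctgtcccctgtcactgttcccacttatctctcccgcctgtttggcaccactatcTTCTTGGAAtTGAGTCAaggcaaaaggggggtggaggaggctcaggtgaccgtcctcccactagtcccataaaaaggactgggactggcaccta
The windows align with 183 identical bases in 203 columns (90.1%). Both hold TTCNNNGAA (from -97 in Hamp and -94 in Hamp2) and TGANTCA (from -87 and -84), while GGCGCC is found in Hamp, upstream of these, and not in the Hamp2 window. In all 32851 promoter windows of 300 bases, on both strands, GGCGCC was present in 11.9%, TTCNNNGAA in 8.30% and TGANTCA in 7.81%. In the promoters of tested genes the shares were 19.8%, 7.02% and 5.46%, and no factor binding was measured here. Hamp had 239.7, 168, 175 and 161 CPM in peri-tumor tissue and 19.9, 9.49, 16.6 and 59.6 in tumors. All tumors were lower, tumor 4 the least (log2 -2.81 ± 0.60 SE, edgeR adjusted p = 0.00141, -3.61 without tumor 4). Hamp2 had 63.4, 193, 30.2 and 3.21 CPM in peri-tumor tissue, uneven between mice, and 0.571, 0.277, 0.450 and 0.597 in tumors (log2 -7.22 ± 1.21 SE, edgeR adjusted p = 0.000186, -6.08 without peri-tumor 2). Peri-tumor Hamp was nearly even across mice, whereas Hamp2 was lowest in mouse 4 and highest in mouse 2. In peri-tumor tissue Cux2, Cyp2c69 and Cyp7a1 ran in the same order of mice as Hamp2, and the cause was not tested. The difference between the 2 folds was not tested.

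Of 36 genes of BMP signaling and hepcidin control, 13 fell and 8 rose. Transferrin receptor 2 (Tfr2), the iron sensor of hepatocytes, had 376, 398, 345 and 368 CPM in peri-tumor tissue and 161, 179, 182 and 166 in tumors (log2 -1.11 ± 0.09 SE, edgeR adjusted p = 3.36e-07). Tmprss6, a protease that restrains hepcidin, fell from 429–604 to 222–280.4 CPM and the iron exporter ferroportin (Slc40a1) from 137–192 to 67.4–93.4 (log2 -1.10 and -1.12). The BMP target Id1 rose from 4.27–7.19 to 23.4–40.4 CPM (log2 2.32), and follistatin (Fst), which binds activins, from 1.03–11.6 to 30.7–64.8 (log2 3.28, 4.26 without peri-tumor 4). Activin subunits parted, with Inhbb up (3.13) and Inhbc down (-1.53). The main iron-regulated ligand Bmp6 overlapped between tissues (log2 0.28 ± 0.28 SE, edgeR adjusted p = 0.453).

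Marker genes of other liver cell types differed as well. All 9 markers of Kupffer cells, the resident macrophages of liver, fell, their summed level going from 893–1364 in peri-tumor livers to 144–243 CPM in tumors. Clec4f, found on Kupffer cells alone, had 256, 293, 271 and 136 CPM and 27.2, 34.9, 18.4 and 25.6 (log2 -3.17 ± 0.36 SE, edgeR adjusted p = 5.26e-06), with peri-tumor 4 the lowest of its group. All 9 markers of recruited macrophages rose, their sum from 24.7–32.8 to 126–233 CPM, with tumor 4 highest. Gpnmb, a gene of lipid-loaded macrophages, stood at 14.6, 8.80, 5.72 and 45.1 CPM in tumors against less than 1 in peri-tumor tissue (log2 5.76, 4.82 without tumor 4). The tetraspanin Cd9 is also made by epithelial cells and held a large part of the sum of these markers. Cd9 had 83.6, 88.7, 94.7 and 108.8 CPM in tumors (log2 2.23), where the sums were 136, 126, 133 and 233. In peri-tumor tissue it had 15.1–25.8 CPM.

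Endothelial markers parted by type. Of 8 markers of sinusoidal endothelium 5 fell, or 3 with the mouse as a block in all 16 libraries or without peri-tumor 2, peri-tumor 3 or tumor 3. Clec4g had 57.9, 99.2, 96.7 and 77.0 CPM in peri-tumor tissue and 28.8, 28.6, 21.1 and 21.0 in tumors (log2 -1.73 ± 0.30 SE, edgeR adjusted p = 0.000262). Of 10 markers of capillary and other endothelium 7 rose. The tip cell gene Esm1 rose from 0.828–4.39 to 16.4–55.02 CPM and Cd34 from 0.954–1.69 to 7.83–14.3 (log2 3.83 and 2.90). The vessel growth factor Vegfa had 61.1, 66.0, 44.3 and 51.1 CPM in peri-tumor tissue and 34.4, 30.7, 32.1 and 46.3 in tumors, where tumor 4 lay within the peri-tumor range (log2 -0.63 ± 0.17 SE, edgeR adjusted p = 0.00721).

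Of 12 stellate cell and fibroblast markers 5 rose and 1 fell. Collagen Col1a1 had 1.78, 3.51, 2.35 and 7.46 CPM in peri-tumor tissue and 22.8, 14.1, 29.1 and 140.1 in tumors, where tumor 4 was far above the others (log2 3.78 ± 0.68 SE, edgeR adjusted p = 0.000353, 2.54 without tumor 4). Tumor 4 also held the highest neutrophil markers, with 2.35, 2.91, 1.41 and 34.4 CPM of S100a8 and 2.79, 2.70, 2.70 and 28.8 of Csf3r in the 4 tumors. S100a8 was not called (edgeR adjusted p = 0.074), and Csf3r was called (log2 1.80, adjusted p 0.0457), but not without tumor 4 (log2 0.02, adjusted p 0.968) or with the mouse as a block in all 16 libraries (0.297). Its call was also lost without any 1 peri-tumor library, in the 8 control libraries alone, with no filter and by limma-voom. S100a8 was called without tumor 1, 2 or 3 and had a log2 of -0.43 without tumor 4. None of the 11 T and NK cell markers and none of the 6 B and plasma cell markers tested was called by edgeR. At an unadjusted p under 0.05 edgeR gave 0 and 2 of them, DESeq2 called 0 and 2, and limma-voom 1 and 1. The lists had sums of 3.07–15.3 and 17.6–20.2 CPM in peri-tumor tissue and 7.94–21.7 and 24.4–33.6 in tumors. Of 7 cholangiocyte markers tested 2 rose and 1 fell. Among them, osteopontin (Spp1) had 22.4, 20.6, 32.0 and 73.2 CPM in peri-tumor tissue and 880.4, 2166, 1859 and 2205 in tumors (log2 5.58 ± 0.54 SE, edgeR adjusted p = 1.13e-06). Spp1 held most of the sum of this list in tumors, which was 956.5–2284 CPM. Sox9, a factor of the ducts, rose by 1.10, whereas the duct keratin Krt19 was at or below 0.190 CPM in every tumor and fell by 3.04 on the log2 scale, and Epcam stayed at or below 1.66 (log2 0.77, edgeR adjusted p = 0.15). The part of these cells in the other results was not tested.

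**Figure D5:**
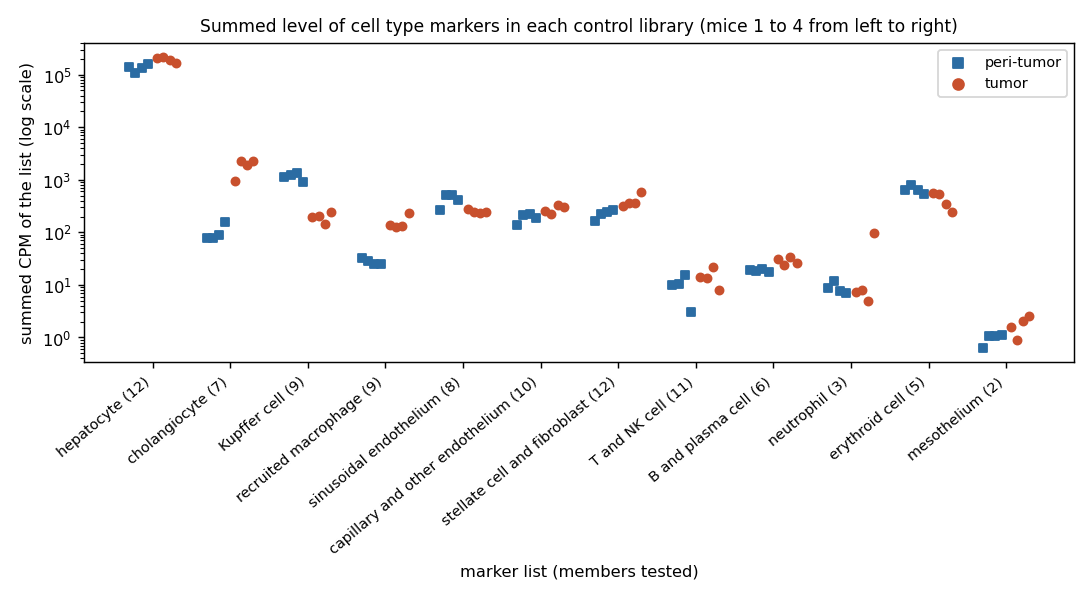
Summed CPM (log scale, y axis) of the tested members of 12 cell type marker lists (x axis) in each control library, squares for peri-tumor tissue and circles for tumors, mice 1 to 4 from left to right. Kupffer cell markers lie lower and recruited macrophage markers, a large part of their sum from Cd9, higher in all 4 tumors. In tumors most of the cholangiocyte sum is Spp1, and much of the hepatocyte sum is Alb. Neutrophil markers stand apart in tumor 4.

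Most called genes changed in the same direction in the 4 mice. They were called on these same libraries, so this agreement was largely given by the call and was not tested. Of 3271 genes called up, 3105 were higher in the tumor of every mouse, and of 3144 called down, 2994 were lower in every mouse. The median within-mouse difference of the genes called up was 1.12, 1.06, 0.982 and 0.908 on the log2 scale in mice 1 to 4, and that of the genes called down -0.842, -0.890, -0.834 and -0.726. Mouse 4 was thus the smallest in both. Among called genes at 1 CPM or more on average in either tissue, peri-tumor 4 was the lowest peri-tumor library for 46.8% of the genes that fell and the highest for 46.0% of those that rose. For the other peri-tumor libraries these shares were 15.2% to 22.2% and 15.1% to 19.7%. They were not counted over all genes tested, so they are not read as particular to the genes called.

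The tumor effect in control mice was finally set against that in TCM mice, a comparison of 8 with 8 libraries that share no sample. The difference was called for 165 of 14865 genes (1.11%). Among them, Igfbp3 differed most of the genes named here toward a smaller rise in TCM mice, with log2 4.86 in control and 1.80 in TCM mice (difference -3.06 ± 0.53 SE, edgeR adjusted p = 0.0103). Btc rose by 3.64 in control mice and had 1.38 in TCM mice (difference -2.27 ± 0.38, edgeR adjusted p = 0.00807). Mdm2 and Gclc rose by 1.44 and 1.61 in control mice and had 0.36 and -0.04 in TCM mice (edgeR adjusted p of the difference = 0.0489 and 0.0297). Falls in control mice that differed from TCM mice included those of Cyp2c69 (-5.26 and -0.79), Notum (-3.56 and -1.39) and Pemt (-2.40 and -1.05), with edgeR adjusted p of the difference of 0.0404, 0.0315 and 0.00232. Vtn, Slco2b1 and Cxcl12 differed in the same direction, with values nearer to 0 in TCM mice (-0.59, -1.69 and -1.45, edgeR adjusted p of the difference = 0.0126, 0.0399 and 0.0211). Cyp2c69 was already low in the peri-tumor tissue of TCM mice. Its means were 3.80 CPM there and 2.20 in TCM tumors, against 164 and 4.29 in control mice. Without control mouse 4, the difference was called for 28 of the genes named here, against these 10. The share over all genes was not counted in that setting, so this move is not a result about the named genes. For the other genes named here a difference between treatments that missed the threshold does not show that the effects were alike. Many of the genes were chosen by their values in control mice, which the difference subtracts. A lean toward smaller effects in TCM mice is therefore partly given by the choice and is not read as a result.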

How the data were processed

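RNA of 16 liver samples was sequenced from stranded mRNA libraries, per the labels' protocols. Raw counts per gene were deposited by the authors for 54838 genes. The authors also deposited FPKM values, used here only to set levels of genes beside each other. Aligner, counter and use of strand are not stated in the sources used here. The submitters' processing notes name mm9 and mm10. The 115 genes without a symbol held at most 0.0171% of a library.

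Counts were tested with edgeR 4.0.16 (R 4.3.3) by the quasi-likelihood test, with TMM scaling, filterByExpr (minimum count 10), 1 mean for each of 4 groups over all 16 libraries (12 residual degrees of freedom) and Benjamini-Hochberg adjustment over 14865 genes. Genes were called at an adjusted p under 0.05. SE was taken from the log2 fold change and its F value. CPM use the TMM-scaled total and no prior count. The procedure was tested on simulated data. Libraries of a group differed by more than sampling noise (chi-square per degree of freedom at least 11.6). Composition was compared by exact two-sided permutation tests. Alternatives were DESeq2 1.42.0, limma-voom (limma 3.58.1), RLE scaling, 2 filters, only the 8 control libraries, the mouse as a block, and libraries or mouse 4 left out.

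The animal code in the labels, shared by a peri-tumor and a tumor sample, pairs the tissues of a mouse. Same-mouse libraries deviated together with correlations of 0.155, 0.116, 0.0627 and 0.229, each highest with its own mouse. The main edgeR test does not use this pairing. Its p-values rest on the spread within the 4 groups of all 16 libraries, TCM mice included. The tissues of a mouse were taken as independent, except where the mouse is named as a block.

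The comparison, the gene lists and the rule for named genes were chosen with earlier results of these data known, and the lists were described by counts and medians only. The rule took the largest folds (12 in each direction at a mean of 20 CPM or more, without overlap), the largest differences in CPM (10 in each direction), the lowest p (8 in each direction), up to 4 members of each list with the lowest p, the 8 most uneven called genes over tumors, the 6 most abundant flat genes and 11 fixed genes, some of which are not reported here. Of 170 genes named in the results, 73 lie outside this rule and were chosen after their values were seen. Genes whose longest GENCODE transcript shares 25% or more of its 50-base words with other genes are given as uncertain. Promoters are from RefSeq (GRCm38.p6), matched by symbol for 10513 of the genes tested, and no other coordinates were used.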

Additional observations from a re-analysis of the deposited data

Results flagged for a closer look

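Among 338 tests of a named gene in 1 of the control groups, 36 had a library that stood apart from the other 3 by Dixon's criterion. Its chance rate of about 1 in 20 holds for normal values of genes not chosen by their values. Many of the named genes were chosen after their values were seen, so no excess over chance is read from this number. The values are in CPM. Tumor 4 stood apart most often, 13 times, with Anxa5 258, Bmp6 6.806, Col1a1 140.1, Csf3r 28.84, Cyp2a4 3095, Hsd3b5 25.91, Mup7 589.3, Notum 3.284, Pemt 57.97, Pklr 86.87, S100a8 34.45, Saa1 280.1 and Saa2 157. The peri-tumor tissue of mouse 4 did so 8 times, with Abcb11 616.5, Alox5 0, Anxa5 79.18, Epcam 0.1395, F11r 77.08, Igf2r 79.45, Saa1 5984 and Saa2 6120. Peri-tumor 2 was apart for Alb 49890, Cdhr2 0.121, Cidea 0.0605 and Foxa3 33.58. For peri-tumor 3 these were Gpc3 6.362, Mki67 4.326, Nras 21.5 and Tspan8 6.362. In tumor 2 they were Hbegf 14.62, Igfbp3 648.8, Nr1i3 16.49 and Tnfrsf10b 22.93. Peri-tumor 1 was apart for Areg 0.06368, that is by a single count. Tumor 1 was apart for Igfbp1 1972. Tumor 3 was apart for Areg 4.949.

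The tumor effect differed between TCM and control mice for 10 named genes (interaction, edgeR adjusted p under 0.05 over all genes tested). The differences, TCM minus control on the log2 scale, were Btc -2.269, Cxcl12 0.9852, Cyp2c69 4.475, Gclc -1.649, Igfbp3 -3.057, Mdm2 -1.078, Notum 2.168, Pemt 1.352, Slco2b1 0.9184 and Vtn 0.8523. A positive value goes with a fall in control mice that was nearer to 0 in TCM mice, and a negative value with a rise in control mice that was smaller in TCM mice, or with a change of sign in Gclc. Many of the named genes were chosen by their values in control mice, and the difference subtracts these same values. A lean toward smaller effects in TCM mice is therefore partly given by the choice and is not read as a result. For Cyp2c69 the mean in peri-tumor tissue was 3.80 CPM in TCM mice, against 164 in control mice.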

How the results depend on the processing

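The number of genes called lay between 5700 (only the 8 control libraries) and 7163 (limma-voom), with 6421 by RLE size factors, 6685 by DESeq2, 6165 without a filter and 6240 with a filter of 1 CPM. Leaving out 1 library gave 5759 to 6704 calls, and 84.5% to 99.8% of the 6415 calls were shared with the same direction under each of these alternatives. The replicate block for the mouse gave 6559 calls in all 16 libraries and 5792 in the 8 control libraries. Among the 170 named genes the block ended the calls of Csf3r and Tgfa in all 16 libraries and of Csf3r, Alb and Tff3 in the 8 control libraries. Of these genes, 149 kept direction and side of the threshold under every alternative that gave a value, and 74 of 98 list counts stayed within 1.5 times. The share of all genes whose tumor effect differed between treatments was not counted without control mouse 4. Leaving out this mouse moved the named genes whose tumor effect differed between TCM and control mice from 10 to 28. It also gave log2 folds of -0.10 for Csf3r, 0.15 for Erbb3, -0.10 for Nras, -0.58 for S100a8 and -0.0552 for Selenop, on the other side of 0 from the values above. With 1 library left out, the ranges that crossed 0 were -0.38 to 0.25 for Erbb3, -0.0753 to 0.107 for F2, -0.0346 to 0.136 for Hras, -0.0945 to 0.642 for Nras, -0.43 to 2.15 for S100a8 and -0.0618 to 0.0921 for Selenop. Limma-voom gave 0.0549 for Erbb3 and -0.0226 for S100a8, and Selenop was at -0.0007397 without a filter and -0.002516 with the filter of 1 CPM. The difference in the mitochondrial share ran from -2.20 to -1.77 percentage points with 1 library left out, that of plasma proteins from 5.72 to 8.80 and that of the 50 largest genes from 3.96 to 5.99. Within mice, an exact sign-flip test (replicate block) gave adjusted p of 0.208, 0.208 and 0.25 for the mitochondrial, ribosomal and plasma protein shares. As shares of the TMM-scaled total the differences were -2.17, 0.039 and 4.50 percentage points (exact permutation, adjusted p 0.114, 0.543 and 0.343). The cause of these moves was not tested.

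Limits of depth and design: 4 mice per tissue, a single library per mouse and tissue, and 13947483 to 16172701 counts leave genes at a few counts imprecise, and intervals cover counting error only. Deposited FPKM were used for levels between genes only.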

Other observations

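A few genes had 0 counts in 1 library and at least 10 CPM in another library of the same control group, 9 genes in peri-tumor tissue and 6 in tumors, 12 genes in all. Klhdc7a had 61.1, 0, 57.1 and 91.0 CPM in the peri-tumor tissue of mice 1 to 4. Kctd12 had 28.5, 55.2, 42.9 and 0 CPM there. The histone gene Hist2h2aa1 had 46.7, 0, 40.1 and 0 CPM in peri-tumor tissue and 37.5, 0, 0 and 0 in tumors, and the translation factor gene Eif3j2 28.4, 0, 29.1 and 0 in tumors. Moxd1 had 23.2 CPM in tumor 4 against 0 to 0.0693 in the other tumors. These genes were singled out after their values were seen.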
